A study of Homo sapiens with 2 samples.

Results

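The imprinted miRNA cluster of human chromosome 14q32, which lies between the genes DLK1 and DIO3, was examined in BEAS-2B cells with and without manganese. Its members were the entries of the deposited count table whose name is 1 of 49 family names of the cluster, such as hsa-miR-379, hsa-miR-654 or hsa-miR-432, with or without a copy number and an arm. The species prefix is left out from here on. This rule, which matches names alone, found 92 of 2904 entries, but the family names were chosen with earlier results of these data known. Of these, 73 had at least 1 count and 33 had at least 20 counts over both libraries, the level called measured here. No entry joined several names, and 4 entries are made from a pair of hairpins whose counts cannot be separated.

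The cluster belongs to an imprinted domain. On the maternal chromosome it is transcribed as long non-coding RNAs, among them MEG3, MEG8 and MEG9, while DLK1, RTL1 and DIO3 are expressed from the paternal one. The miRNA hairpins are cut out of these maternal transcripts in a pair of groups, an upstream one around miR-127 and miR-136 and a downstream one that runs from miR-379 to miR-656, with arrays of small nucleolar RNAs between them. The cluster is known for its expression in brain, placenta and embryonic and mesenchymal tissue.

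BEAS-2B is an immortalised human bronchial epithelial line with a wild-type genotype per the labels. One group received vehicle and the other manganese, both for 24 h, and the cells were kept in medium with serum. The sources used here do not give the manganese dose. Each of the 2 groups held 1 small RNA library, with totals of 1064179 (control) and 1091070 (manganese) counts, so differences compare 2 libraries and have no replicate check. All intervals are 95% intervals of counting error alone, and no p-value is given. A fold is the ratio of counts scaled to the library sizes by TMM, manganese over control, and CPM, the usual depth-normalised count unit, is on the same scale. An entry is called higher or lower when its fold reaches 2 in that direction and its interval excludes 1.

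Hairpin positions were taken from GENCODE on GRCh38, which the submitters' processing notes give as hg38. The 49 families correspond to 52 hairpins, all on the plus strand of chromosome 14 from 100852390 to 101066801. The upstream or proximal group, MIR770 to MIR370, holds 10 hairpins over 58.8 kb. The downstream or distal group, MIR379 to MIR656, holds 42 hairpins of 39 families over 44.7 kb, and 110.9 kb separate the groups. By annotation, MIR431, MIR433, MIR127, MIR432 and MIR136 lie opposite an exon of RTL1, on its other strand. A total of 14 hairpins, MIR370 and those from MIR379 to MIR495, lie in introns of MEG8, and 6 from MIR541 to MIR656 overlap MEG9. Another 6 lie in introns of MIR381HG, and 17 overlap no annotated long gene.

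The mature sequences of the 8 most abundant members and of the 2 members called higher are shown first, because most counts of the cluster and both calls rest on them. They are the RefSeq sequences for GRCh38.p14, 5′ to 3′, with the seed (bases 2 to 8), which pairs with target mRNAs, in capitals.
miR-493-5p: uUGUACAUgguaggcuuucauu
miR-127-3p: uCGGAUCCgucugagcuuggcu
miR-432-5p: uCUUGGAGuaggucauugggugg
miR-379-5p: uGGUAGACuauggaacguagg
miR-411-5p: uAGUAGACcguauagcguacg
miR-323a-3p: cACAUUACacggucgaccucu
miR-495-3p: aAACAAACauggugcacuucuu
miR-654-3p: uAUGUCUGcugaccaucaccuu
miR-134-5p: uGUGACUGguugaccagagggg
miR-409-3p: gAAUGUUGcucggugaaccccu
These 10 mature RNAs have 10 different seeds and lengths of 21 to 23 bases.

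As a whole the cluster was a minor part of both libraries and kept nearly the same total. Its 92 entries summed to 2330 control counts and 2130 manganese counts. This was 0.219% of the control library (Clopper-Pearson interval 0.210 to 0.228) and 0.195% of the manganese library (0.187 to 0.204). The fold of the sum was 0.927 (0.874 to 0.984), but its side of 1 depended on the scaling. It was 1.05 (0.994 to 1.12) when library totals were taken without the 5 most abundant entries of the table. The sum includes every member with a count, so no filter on low counts enters it.

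The 5 most abundant members, miR-654-3p, miR-379-5p, miR-493-5p, miR-409-3p and miR-411-5p, held 57.1% of the cluster's control counts (55.1 to 59.2) and 52.02% of its manganese counts (49.9 to 54.2). By count over both libraries, miR-654-3p was at rank 92 and miR-379-5p at rank 94. The table had 965 entries with counts, of which 403 were measured. The 40 detected entries with fewer than 20 counts gave only 122 and 144 counts in all, so most mature arms of this locus were rare in these cells.

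Levels changed steeply from one hairpin to the next, and the same hairpins stood out in both libraries. With both arms summed, the highest levels were those of miR-654 with 372 and 324 CPM, miR-379 with 365 and 265 CPM, miR-493 with 259 and 234 CPM, and miR-409 with 196 and 176 CPM. The MIR654 hairpin lies between MIR376A2 and MIR376B, and its 751 counts over both libraries stood beside 32 for miR-376a and 11 for miR-376b. Likewise MIR379 gave 680 counts and its downstream neighbour MIR411 gave 251, while MIR299, the next hairpin, gave 40. At the downstream end, miR-409 had 401 counts and miR-412 and miR-369 of the same short stretch had 63 and 42. Over the 33 measured members, log2 CPM of the libraries had a Pearson correlation of 0.915 and a Spearman correlation of 0.843. This is a description of members that were sequenced in the same 2 libraries.

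**Figure D1:**
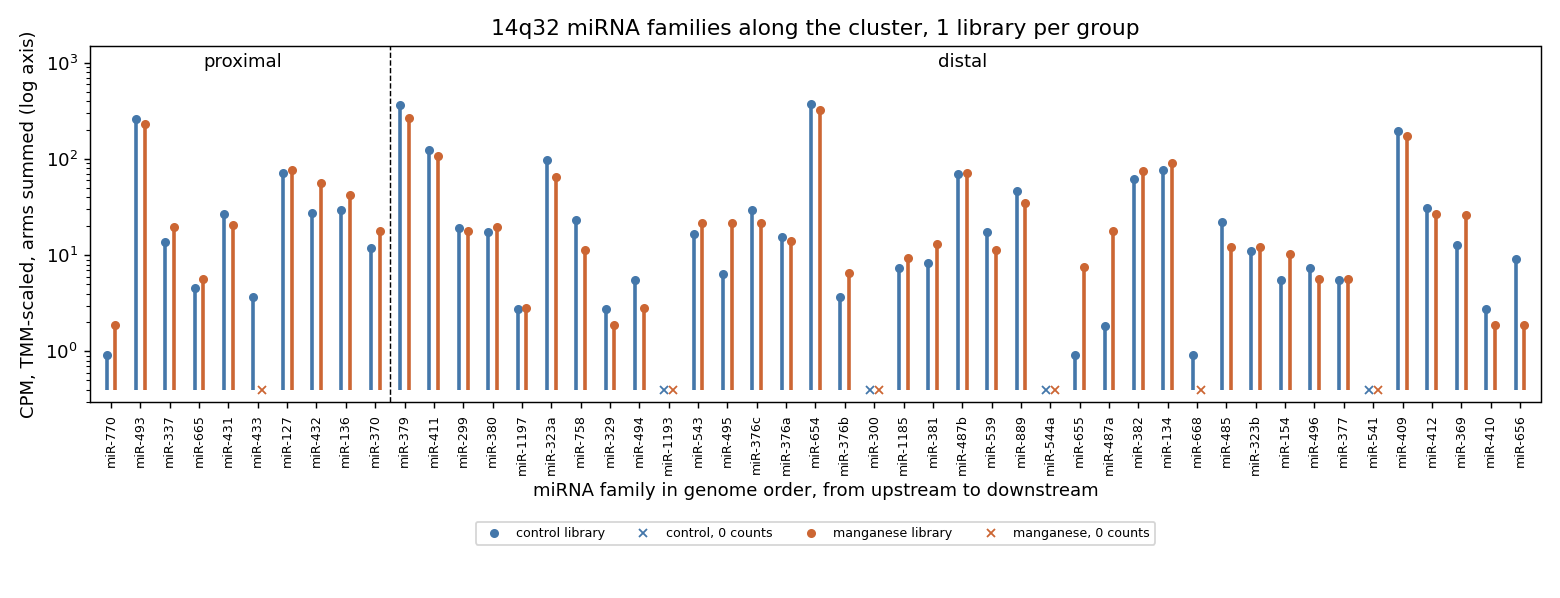
Level of each of the 49 families in genome order, in TMM-scaled CPM on a log axis with both arms and all copies summed, for the control and the manganese library. Crosses mark families with 0 counts, and the dashed line separates the proximal from the distal group. The tallest families, miR-654, miR-379, miR-493 and miR-409, stand out in both libraries, and 4 families had no counts.

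The balance of proximal and distal hairpins differed slightly between the libraries, and the difference leaned on 1 member. The proximal group had 488 control and 509 manganese counts, a fold of 1.06 (0.933 to 1.20) that became 0.992 (0.869 to 1.13) without miR-432-5p. The distal group had 1842 and 1621, a fold of 0.893 (0.835 to 0.955), which became 1.02 (0.949 to 1.09) without the 5 most abundant entries in the totals. The proximal share of the cluster's counts needs no scaling between libraries. It was 20.9% for the control (19.3 to 22.7) and 23.9% for manganese (22.1 to 25.8), an odds ratio of 1.19 (1.03 to 1.37). Without miR-432-5p this odds ratio was 1.11 (0.958 to 1.29), so that the interval no longer excluded 1.

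Of the 33 measured members, 2 (6.06%) were called higher, against 12.9% of all 403 measured entries. None of the 33 was called lower, against 6.45% of all measured entries. Both called members had fewer than 100 counts. Among all 192 entries with 20 to 99 counts, 18.2% were called higher and 8.33% lower. Intervals that excluded 1 in either direction were found for 6 members (18.2%), against 49.9% of all measured entries. That comparison is affected by depth, since 24 of the 33 members had fewer than 100 counts. The fold lay below 1 in 18 of the 33 members (54.5%), against 55.1% of all measured entries. The median log2 fold of the members was −0.07, beside −0.08 for all measured entries, and the members ranged from −0.95 to 1.81. A member that passes the count minimum through 1 library alone is prone to a large fold, and 4 members passed it through their manganese count alone and 3 through their control count alone. The 5 scalings shift all folds alike, and 7 of the 33 members lay close enough to 1 to change sides under them. The intervals moved too. Without the 5 most abundant entries in the totals, those of miR-323a-3p, miR-654-3p and miR-493-3p spanned 1. Those of miR-136-3p (1.12 to 3.88) and miR-134-5p (1.01 to 1.85) then excluded 1, both on the higher side.

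One of the called members was miR-432-5p of the proximal group, from a hairpin at 100884483 to 100884576 on chromosome 14. Control counts were 30 and manganese counts 61, or 27.6 and 57.02 CPM. It was 2.06-fold higher with manganese (1.31 to 3.31). When libraries were scaled by total counts the fold was 1.98, just short of the rule. Its share of the cluster's counts gave an odds ratio of 2.26 (1.43 to 3.64), which needs no scaling. The other arm, miR-432-3p, had 0 counts in both libraries.

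The other was miR-495-3p of the distal group, from a hairpin at 101033755 to 101033836. Control counts were 6 and manganese counts 22, and it was 3.72-fold higher (1.46 to 11.2). It passed the count minimum through its manganese count alone. The odds ratio of its share of the cluster was 4.04 (1.59 to 12.2). The other arm, miR-495-5p, had 1 count in each library.

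**Figure D2:**
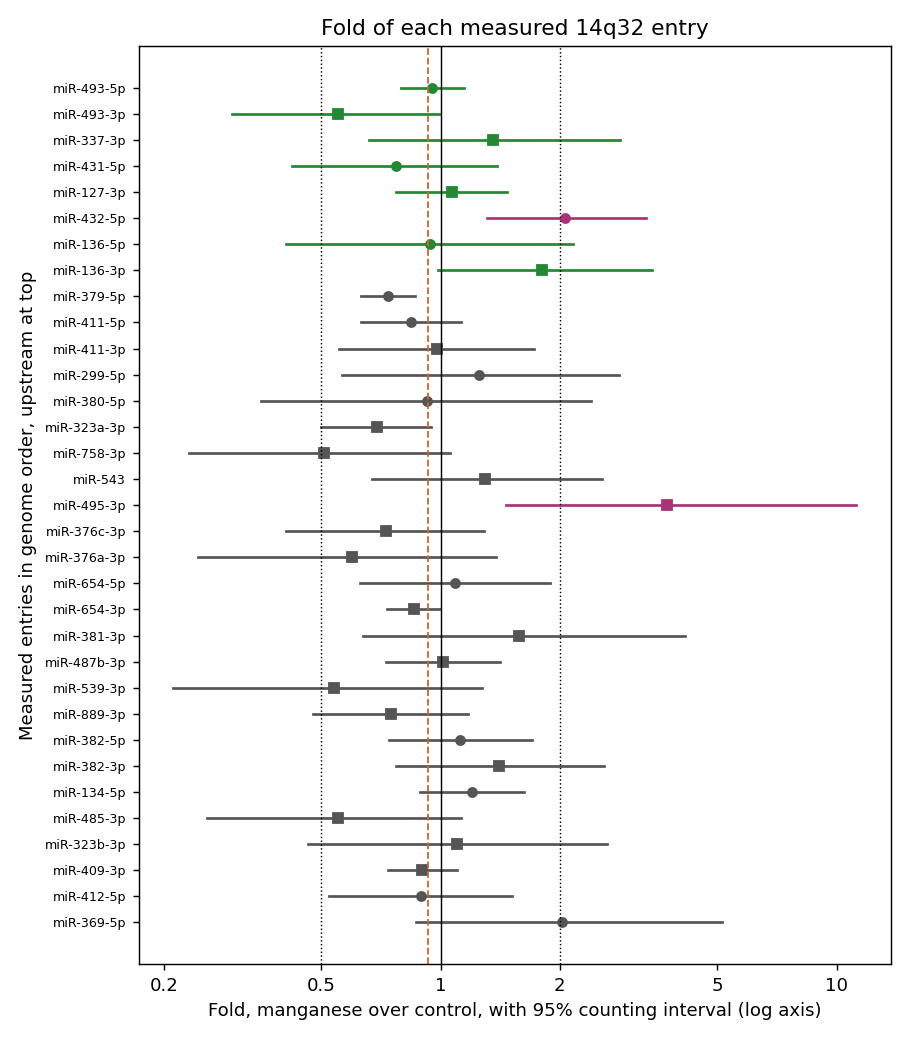
Fold, manganese over control, of the 33 measured members in genome order with the most upstream at the top, on a log axis with 95% counting intervals. Circles are 5p arms and squares 3p arms, green marks proximal and grey distal members, purple the 2 members called higher, dotted lines 0.5-fold and 2-fold, and the dashed line the fold of the cluster's sum, 0.927. Under TMM, all intervals span 1 except those of miR-432-5p, miR-495-3p, miR-379-5p, miR-323a-3p, miR-654-3p and miR-493-3p. The last of these ends at 0.990.

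In the proximal group, miR-493-5p was the most abundant member, with 246 control and 231 manganese counts, a fold of 0.953 (0.793 to 1.15). The 2 libraries thus lay close together. The opposite arm, miR-493-3p, had 35 and 19 counts and a fold of 0.551 (0.298 to 0.990), short of the 2-fold rule although its interval excluded 1.

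The 5 hairpins opposite RTL1 include miR-127, miR-136, miR-431 and miR-433, which in mouse direct the cleavage of the Rtl1 mRNA. Together these hairpins had 173 and 211 counts, a fold of 1.24 (1.01 to 1.52). The interval held 1 under total counts (1.19, 0.968 to 1.46) and under DESeq2 size factors (1.22, 0.993 to 1.5), and the fold was 1.41 (1.15 to 1.73) without the 5 most abundant entries in the totals. This set was summed after counts were seen. Without miR-432-5p the fold was 1.06 (0.841 to 1.35). The best measured of them, miR-127-3p, had 78 and 82 counts and a fold of 1.07 (0.773 to 1.47). For miR-136-3p the counts were 18 and 32 and the fold 1.80 (0.982 to 3.41), while miR-136-5p of the same hairpin had 14 and 13. The counts of miR-431-5p were 29 and 22 (0.770, 0.421 to 1.39). Under TMM these 4 arms thus lay on both sides of 1, with intervals that span it. Without the 5 most abundant entries in the totals, miR-136-3p had a fold of 2.05 (1.12 to 3.88), which meets the call rule. This arm passed the count minimum through its manganese count alone. Each arm of miR-433 had 2 control counts and 0 manganese counts.

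Upstream of these, miR-337-3p had 15 and 20 counts (1.35, 0.658 to 2.84), and miR-665 had 5 and 6. At the end of the group, miR-370-3p had 7 counts in each library and miR-370-5p had 6 and 12. The first hairpin, MIR770, which overlaps an exon of MEG3, gave 1 and 2 counts of miR-770-5p.

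In the distal group the summed counts of the upstream hairpins were fewer with manganese, although no member there was called. The member with the largest count difference was miR-379-5p, from a hairpin at 101022066 to 101022132. It had 390 control and 283 manganese counts, or 359 and 265 CPM, a fold of 0.736 (0.629 to 0.860). The interval excluded 1 under each of the 5 scalings, and the fold ranged from 0.708 to 0.837, always short of the 2-fold rule. As a share of the cluster, miR-379-5p had an odds ratio of 0.762 (0.643 to 0.903).

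Its neighbour miR-411-5p had 107 and 89 counts (0.844, 0.630 to 1.13), and miR-411-3p had 28 and 27. A little further on, miR-323a-3p had 100 and 68 counts and a fold of 0.690 (0.499 to 0.948), and miR-758-3p had 24 and 12 (0.507, 0.231 to 1.06). The remaining measured arms of this stretch were miR-299-5p with 13 and 16 counts (1.25, 0.563 to 2.82) and miR-380-5p with 11 and 10 (0.922, 0.351 to 2.39). All 7 families from MIR379 to MIR758 held 30.2% of the cluster's control counts and 24.65% of its manganese counts, which gives a summed fold of 0.757 (0.674 to 0.848). This stretch was delimited after counts were seen, so its sum is a description. Without miR-379-5p its fold was 0.782 (0.658 to 0.928), and without the 5 most abundant entries in the totals it was 0.861 (0.767 to 0.965).

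The middle of the distal group holds miR-654 and the miR-376 family, whose precursors are known targets of A-to-I RNA editing. The most abundant member of the cluster, miR-654-3p, had 376 and 317 counts and a fold of 0.855 (0.734 to 0.996). Its partner miR-654-5p had 28 and 30. For miR-376c-3p the counts were 32 and 23 (0.729, 0.407 to 1.29) and for miR-376a-3p 17 and 10 (0.597, 0.244 to 1.38). The miR-376 entries a, b and c together had 53 and 45 counts, a fold of 0.861 (0.566 to 1.31), so no difference was detectable at this depth. Around them, miR-543 had 18 and 23 counts, miR-381-3p had 9 and 14, and miR-539-3p had 17 and 9. The intervals of all 3 span 1. Equal counts of 76 were found for miR-487b-3p (1.02, 0.728 to 1.41), and miR-889-3p had 50 and 37 (0.751, 0.477 to 1.17).

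Further downstream, miR-134-5p, known in rat neurons for limiting dendritic spine size, had 83 and 98 counts, a fold of 1.20 (0.885 to 1.62). Its upstream neighbour miR-382-5p had 47 and 52 (1.12, 0.742 to 1.70) and miR-382-3p 21 and 29 (1.4, 0.772 to 2.58). Lower counts with manganese were listed for miR-485-3p, 24 and 13 (0.550, 0.257 to 1.12), and similar ones for miR-323b-3p, 12 and 13. Thus close neighbours in the genome lay on either side of 1, all with intervals that span it under TMM.

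At the downstream end, miR-409-3p had 212 and 188 counts (0.900, 0.735 to 1.10) and miR-412-5p had 33 and 29 (0.892, 0.522 to 1.51). The next hairpin, that of miR-369, had the larger counts with manganese on both arms. Its 5p arm had 9 and 18 counts (2.03, 0.866 to 5.13) and its 3p arm, known for raising translation of TNF mRNA in quiescent cells, 5 and 10. Summed over arms the miR-369 family had 14 and 28 counts, 2.03-fold higher (1.03 to 4.17). Families from MIR487A to MIR656 together had 484 and 496 counts (1.04, 0.915 to 1.18).

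When both arms and all copies were summed per family, 30 families had at least 20 counts and 4 of them were called higher, miR-432, miR-495, miR-487a and miR-369. Over all 304 families of the table with at least 20 counts, a similar share, 12.8%, was called higher, and 5.26% lower. None of the 30 was called lower. The calls per family were made under TMM alone. Under total counts miR-432-5p, which gives all counts of its family, had a fold of 1.98, short of the rule. The miR-369 family has the same ratio of counts as miR-369-5p, whose fold under total counts was 1.95. The calls of miR-432 and miR-369 thus depend on the scaling. The families miR-369 and miR-495, the latter with 7 and 23 counts, passed the minimum through their manganese counts alone. Of the 4 called families, only miR-432 reached 20 counts in the control library. The miR-487a family was 9.64-fold higher, with a wide interval (2.33 to 85.3), from 2 control and 19 manganese counts, and neither library alone reached the minimum of 20. Its 3p arm was absent from the control library and had 12 manganese counts. Set against the 3 counts that a 0 allows, these 12 counts gave a ratio of 4.06, while the counting interval of the arm's fold began at 2.82.

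By rank, genome order and the folds of single members or families were hardly related. Over the 33 measured members, the Spearman correlation of order along the cluster with log2 fold was 0.04, and over the 30 families it was −0.05. These points share both libraries and neighbouring hairpins, so the values are descriptions. Summed counts of consecutive distal stretches had folds of 0.757 (MIR379 to MIR758), 0.931 (MIR329 to MIR655, 0.832 to 1.04) and 1.04 (MIR487A to MIR656). The proximal group, upstream of them, had 1.06. The distal stretches were delimited after counts were seen.

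For most hairpins the major arm was the same in both libraries. A total of 20 families had counts on both arms and at least 20 counts in all, and in 17 of them the same arm was the major one in both libraries. Over both libraries 9 of the 20 gave over 90% of their counts from a single arm. Summed over all members, 5p arms had 1077 and 1006 counts and 3p arms 1253 and 1124. The 5p share of the cluster was 46.2% for the control (44.2 to 48.3) and 47.2% for manganese (45.1 to 49.4), an odds ratio of 1.04 (0.924 to 1.17). The 5p share of the proximal counts was 67.2% for the control and 67.4% for manganese, and that of the distal counts 40.7% and 40.9%. The proximal value rested on miR-493. Without that hairpin the proximal 5p share was 39.6% (32.9 to 46.6) and 43.2% (37.1 to 49.5), close to the distal one.

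Neighbouring hairpins differed in how their counts were split between the arms. The 5p share of miR-379 was 98.5% for the control (96.7 to 99.4) and 99.65% for manganese (98.05 to 99.99). That of miR-411, the next hairpin, was 79.3% (71.4 to 85.8) and 76.7% (68.0 to 84.1). Opposite use was seen in miR-409, where 212 of 213 control counts and all 188 manganese counts came from the 3p arm. The hairpin beside it, MIR412, gave 33 of 34 control counts and all 29 manganese counts from its 5p arm. The 5p share of miR-654 was 6.93% (4.65 to 9.86) and 8.65% (5.91 to 12.1), and that of miR-493 was 87.5% (83.1 to 91.2) and 92.4% (88.4 to 95.4).

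Only for miR-376a among the 20 did the odds ratio of the arms have an interval that excluded 1. With 20 intervals of 95% each, 1 of them may do so through counting error alone. The 5p arms of miR-376a had 0 control and 5 manganese counts, while the 3p arm had 17 and 10, and the interval of the odds ratio started at 1.23. The 3p entry comes from both miR-376a hairpins, while the table lists their 5p arms apart, with miR-376a-2-5p at 0 counts in both libraries. Changes of the major arm occurred in miR-370, miR-380 and miR-487a, each with at most 40 counts.

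**Figure D3:**
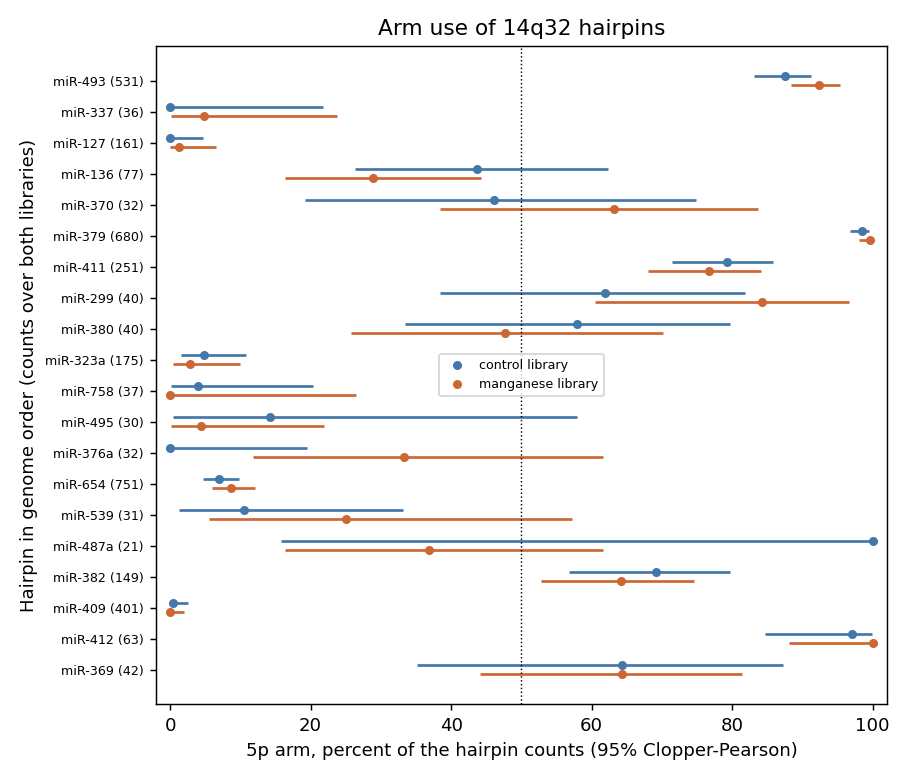
Share of each hairpin's counts that came from the 5p arm, in percent with 95% Clopper-Pearson intervals, for the 20 families with counts on both arms and at least 20 counts in all, given in brackets. Deeply counted families such as miR-379, miR-654 and miR-409 sit at nearly the same place in both libraries, while families with few counts such as miR-487a, miR-376a, miR-299 and miR-370 lie further apart with wide intervals. The intervals of the libraries overlap for all 20 families.

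The sequences of the cluster resemble each other in groups. RefSeq held mature sequences for 91 of the 92 entries, with 80 distinct seeds, and 10 of these seeds were shared by at least 2 members. The seed groups with at least 20 counts are shown because their members can pair with the same targets, so that their counts add up.
miR-539-3p: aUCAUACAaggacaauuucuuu
miR-485-3p: gUCAUACAcggcucuccucucu
miR-379-3p: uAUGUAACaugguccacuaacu
miR-411-3p: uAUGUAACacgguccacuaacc
miR-654-5p: uGGUGGGCcgcagaacaugugc
miR-541-3p: uGGUGGGCacagaaucuggacu
miR-376a-3p: aUCAUAGAggaaaauccacgu
miR-376b-3p: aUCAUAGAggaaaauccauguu
miR-487a-3p: aAUCAUACagggacauccaguu
miR-154-3p: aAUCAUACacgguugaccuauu
miR-300: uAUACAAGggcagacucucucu
miR-381-3p: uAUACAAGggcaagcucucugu
The seed shared by miR-539-3p and miR-485-3p had 41 control and 22 manganese counts, a fold of 0.544 (0.309 to 0.936). The seed of miR-487a-3p and miR-154-3p had 4 and 22 counts, a ratio of 5.58 (1.90 to 22.3). In each pair both members had their counts in the same order, fewer with manganese in the first pair and more in the second. Neither arm of the first pair was called. Both arms of the second had fewer than 20 counts, 0 and 12 for miR-487a-3p and 4 and 10 for miR-154-3p, so they could not be called. These pairs were singled out after their values were seen. The seed of miR-376a-3p and miR-376b-3p had 21 and 17 counts (0.821, 0.407 to 1.63). In the pairs of miR-654-5p with miR-541-3p and of miR-381-3p with miR-300, the second member had 0 counts in both libraries.

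Some members are so alike that counting could confuse them, and their separate values are uncertain. Aligned from the 5′ end over 21 bases, miR-376a-3p and miR-376b-3p differ at 1 base and miR-376a-3p and miR-376c-3p at 2. The 3p arms of miR-379 and miR-411 differ at 2 of 22 bases, and those of miR-323a and miR-323b at 2 of 21. The 3p arms of the MIR1185 hairpins differ at 1 of 22 bases.

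Short motifs also recurred within the first 12 bases of the mature RNAs, read on the RNA strand only. The letters GGUNGA were found in 7 of 44 5p arms of the cluster (15.9%) and in 1.01% of the 2279 other human mature miRNAs of RefSeq. In 3p arms, UAUGU was found in 5 of 47 (10.6%), among them those of miR-379, miR-411 and miR-654, and in 0.570% of the others. The letters AUNNUAC were found in 7 of 47 3p arms (14.9%), such as miR-487a-3p and miR-154-3p, and in 0.483% of the others. These motifs were picked after the members were known, and many members have similar sequences. Their higher share in the cluster is therefore a description and no test of enrichment. Median GC content was 48.9% in the 5p and 45.5% in the 3p arms of the cluster, beside 47.6% in 307 other measured entries. The sets are unlike, since the 44 and 47 cluster arms were taken whatever their counts.

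Members below the count minimum filled most of the locus. Of the 92 entries, 19 had no counts in either library, 11 had counts in the control only and 6 with manganese only. The families miR-1193, miR-300, miR-544a and miR-541 had no counts at all. A count of 0 allows up to 3 counts, equal to 2.76 CPM for the control and 2.80 CPM for manganese. Some rare entries are named here after their values were seen. Of these, miR-656-3p of the last hairpin had 10 and 2 counts (0.203, 0.022 to 0.952) and miR-655-3p had 1 and 8, a ratio of 8.12 (1.09 to 360.1). The arm miR-485-5p had 0 counts in both libraries.

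Set against the whole table, most of the cluster lay near the line of equality, while the measured markers of blood cells, placenta and mesenchymal cells lay above it. Of all 403 measured entries, 12.9% were called higher. The 10 blood cell markers summed to 9660 control and 176536 manganese counts, with all 5 measured ones called higher. The 51 entries of the placental cluster of 19q13, another imprinted miRNA cluster, had 71 and 831 counts, with all 8 measured ones called higher and 25 entries at 0 in both libraries. The 8 mesenchymal markers had 1102 and 3063 counts, with all 3 measured ones called higher, while miR-199a-5p, miR-199b-5p, miR-214-3p and miR-145-3p were at 0 in both libraries. The 2 endothelial markers had 30 and 47 counts, with the 1 measured one called higher. The 6 neuronal markers had 752 and 490 counts, nearly all of them miR-128-3p and miR-218-5p, the latter called lower, with miR-124-3p at 0 and 3 counts and miR-9-3p at 0 in both. The 6 epithelial markers had 112 and 224 counts, with 2 of 3 measured ones called higher and only 3 and 11 counts of miR-205-5p and 3 and 7 of miR-200c-3p, so the markers of the labelled epithelial type were present at low counts. Most of these lists had more counts in the manganese library, as had miR-432-5p and miR-495-3p, and their part in the values of the cluster was not tested.

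**Figure D4:**
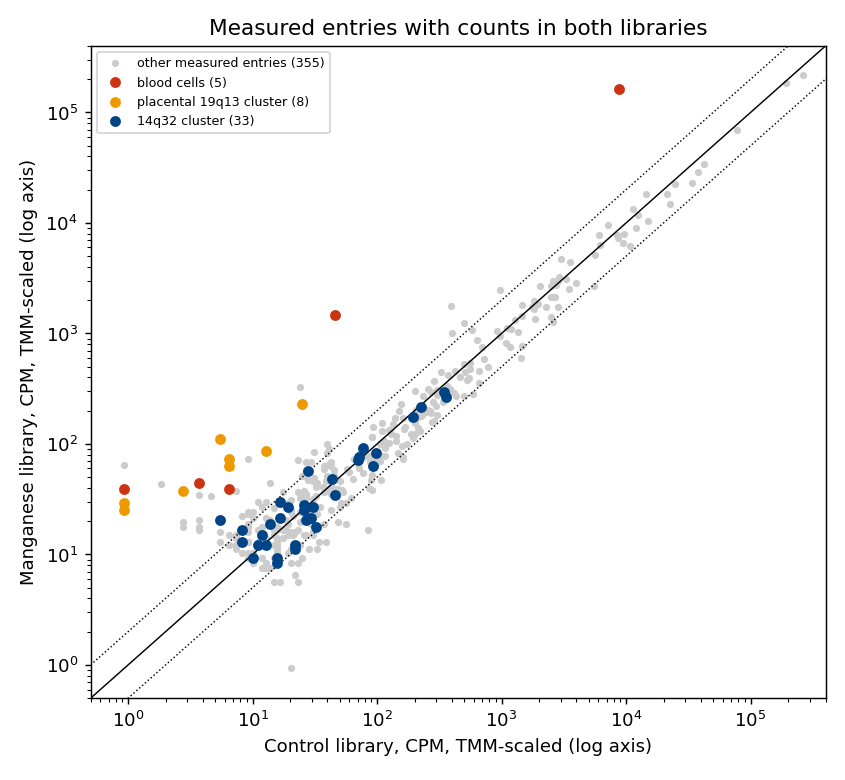
Level in the manganese library against that in the control library, in TMM-scaled CPM on log axes, for measured entries with counts in both. Blue points are the 33 measured members of the 14q32 cluster, red points blood cell markers, orange points the 19q13 cluster and grey points the 355 other entries. The solid line is equality and dotted lines are 2-fold. Except for miR-432-5p, miR-495-3p and miR-369-5p, the blue points lie between the dotted lines, while all red and orange points lie above the upper dotted line.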

How the data were processed

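The authors deposited whole-number counts per mature miRNA entry for BEAS-2B cells with vehicle or manganese, with 1 column per library assigned by its name. Per the submitters' processing notes the genome build was hg38; for the aligner, counter and miRNA annotation, the sources used here name none. The unit was read from the values. The authors' deposited table of count differences was not used.

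TMM factors that scale the library sizes came from edgeR 4.0.16 under R 4.3.3 (1.02 for the control and 0.981 for manganese). Fold intervals are exact conditional binomial intervals, shares have Clopper-Pearson intervals and odds ratios exact conditional intervals, from scipy 1.17.1 in Python 3.11.15. The log2 folds behind medians used a pseudocount of 0.5 counts. The labels describe no molecular identifiers, and all intervals and floors express counting error alone. The interval routine was tested on simulated data. Hairpins came from GENCODE 29. Arms missing from a name were assigned by position in the hairpin.

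Alternatives were 4 other scalings (total counts, size factors of DESeq2 1.42.0, totals without the 5 most abundant entries or without the blood cell and 19q13 lists), 3 other filters, 2 other call rules, a pseudocount of 5 and the removal of single members. Every measured member could be named, and values are given for all 33. Stretches of the distal group, the set opposite RTL1, motifs and rarer entries were picked after counts were seen, and seed groups under 20 counts are not printed. Sequences are shown for the 8 most abundant members, those called and members of shared seeds with at least 20 counts. The members and lists were chosen with earlier results of these data known.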

Additional observations from a re-analysis of the deposited data

How the results depend on the processing

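With 1 library per group the data show differences between 2 libraries, and depth limits most members, since 24 of 33 had fewer than 100 counts. Without the 5 most abundant entries in the totals, log2 folds shifted by 0.186 at the median of the measured entries. The fold of the cluster's sum then became 1.05, that of the distal group 1.02 and that of the 3p arms 1.04 in place of 0.910, all on the other side of 1. The proximal group moved to 1.20, the 5p arms to 1.08 and the stretch from MIR379 to MIR758 to 0.861. Totals without the blood cell and 19q13 lists gave the same rounded values, 1.05, 1.02, 1.04, 1.20, 1.08 and 0.861. Relative to the median of all entries, the members' median log2 fold was 0.01 under each of the 5 scalings, which shift all entries alike, and between −0.04 and 0.03 under the other filters and settings run.

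The count of members called higher was 2. It was 3 with each of these 2 reduced totals, where miR-136-3p also passed. With total counts it was 1, as miR-432-5p fell short. With at least 10 counts in each library it was 1, as miR-495-3p drops out. It was 0 with at least 100 counts or when the interval bound had to reach 2-fold. With no filter it was 4, with 1 called lower, and it was 4 when arms were summed per family. A rule of 1.5-fold gave 1 lower. Shares over all entries were taken under the main rule only. They were 12.9% higher and 6.45% lower for single entries and 12.8% higher for families. The counts under the other settings have no such share beside them, so they are no result about the members. Alternatives that left out miR-432-5p, miR-379-5p or miR-493, and the sums per family, were chosen after seeing the data. No paired analysis was possible because each group has 1 library.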

Other observations

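Other imprinted miRNAs and other miRNAs of 14q32 gave the following values. The 9 entries of imprinted miRNAs elsewhere were those of miR-675, miR-483, miR-335, miR-296 and miR-298. Of these, 4 were measured and 1 was called higher, against 12.9% of all measured entries. The called entry, miR-483-5p of the IGF2 gene, had 2 and 46 counts (23.3-fold, 6.10 to 198). It passed the count minimum through its manganese count alone. The arm miR-335-5p, from the imprinted MEST gene, had 1401 and 1413 counts (1.02, 0.95 to 1.10), and miR-335-3p had 608 and 508 (0.848, 0.752 to 0.955). The list's sum was 2038 and 1991 counts, a fold of 0.991 (0.931 to 1.06). Both arms of miR-675, made from the imprinted H19 RNA, had 0 counts in both libraries.

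Of the 12 entries of 14q32 miRNAs outside the cluster, 3 were measured. One was called higher, against 12.9% of all measured entries. This was miR-342-5p from the EVL gene, with 15 and 47 counts (3.18-fold, 1.75 to 6.12). It passed the count minimum through its manganese count alone. The other arm of the hairpin, miR-342-3p, had 43 and 55 counts (1.3, 0.855 to 1.98). For miR-345-5p the counts were 124 and 106 (0.867, 0.663 to 1.13). The list's sum was 182 and 211 counts, a fold of 1.18 (0.960 to 1.44).

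Another 8 entries named for families of the cluster carry a p- prefix that the labels do not explain. Together they had 2 control counts and 0 manganese counts.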
